A study of Mus musculus with 19 samples.

Results

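Muscle of aged mice was compared with muscle of young mice, both on the lean diet, across all expressed genes. The comparison took 9 of the 19 sequenced libraries: 5 aged lean and 4 young lean. Libraries were chosen by labelled age and diet alone, and 13367 of 14707 listed genes entered because their mean over the 19 libraries was at least 10. Per the labels the mice were male, of a strain spelled C657Bl/6J, with no transgene or drug named. The young lean mice were 6 months old and the aged lean mice 20 to 21 months old, and both ate a diet with 12% of energy from fat. Young obese and aged obese mice (5 libraries each, at the same ages) ate 60% of energy from fat and serve as the second ageing comparison. They also enter the gene filter and the pooled spread of the lean test. The sample labels name gastrocnemius, the mixed-fibre calf muscle, and single-end reads, whereas the series design text gives the muscle as tibialis anterior, the reads as paired-end and the aged mice as 21 to 24 months old. That conflict could not be settled from the values. The labels do not say whether each library is a separate mouse. A p-value here sets a mean difference against the spread among libraries, pooled over the 4 groups. That spread may be technical in part.

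Skeletal muscle loses mass and force with age, a state called sarcopenia when severe. In mice, ageing muscle is known for scattered fibres that lose their nerve, for infiltrating and resident immune cells, and for weaker repair by satellite cells. The tissue is mostly myofibres, with blood vessels, fibroblast-like progenitors, macrophages, nerve and tendon mixed in. In such bulk samples, fewer cells of a type and less RNA per cell cannot be told apart.

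The 10 myofibre markers, among them muscle actin and creatine kinase, were all present at high level, with a summed normalized value of 2428700 to 3065500 in young lean and 2459100 to 2618300 in aged lean libraries. Estimated depth was 15.9 to 17.0 M reads in the lean libraries. Young lean 1 stood apart: its mean correlation across genes was 0.972 with its own group and 0.973 with the aged lean group, while each of the other 8 libraries was closer to its own group. A clock score, the level of clock activators minus that of clock outputs on the log2 scale, also differed by age. It was -1.32 in young lean 1 and -2.94, -2.88 and -3.20 in the other young lean libraries, and -2.30, -0.70, -1.43, -1.77 and -1.38 in the aged lean libraries. The groups overlapped on this score through young lean 1 alone. The part of time of day or feeding in the results below was not tested, since the labels give neither.

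In aged muscle on the lean diet the membrane protein gene Tmem132b, the keratin Krt18 and the synaptotagmin Syt9 were 6.16 to 14.2-fold higher, and 3 antigen presentation and 6 chemokine or cytokine genes were also higher. Falls were smaller and included the corepressor Hr, the kinase Map2k3 and the aminotransferase Gpt2. Before adjustment, 2809 of the 13367 genes had a limma p under 0.05, the background for such counts in gene lists below. Of the 13367 genes, 545 passed limma's test at an adjusted p under 0.05, which is 4.08%. Of these, 279 rose (2.09%) and 266 fell (1.99%). Among the 98 that changed more than 2-fold, 85 rose and 13 fell. The median size of a called change was 0.53 on the log2 scale, and 311 called genes changed less than 1.5-fold. In 864 genes (6.46%) the groups did not overlap, with aged libraries higher in 423 (3.16%) and lower in 441 (3.3%). Of the called genes, 399 were free of overlap. Leaving out young lean 1 raised the count to 1271, 536 up and 735 down. It fell to 283 or 337 when young lean 3 or 2 was left out, and to 318, 324 or 349 when aged lean 2, 1 or 5 was. The count was 206 with the clock score as a covariate and 130 when the 2 lean groups were fitted alone. With each library scaled to the same total, 567 genes passed, 403 up and 164 down, so the balance of rises and falls depends on the scaling. In all 19 runs that left out 1 library 188 of the 545 calls were kept, 97 up and 91 down.

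**Figure D1:**
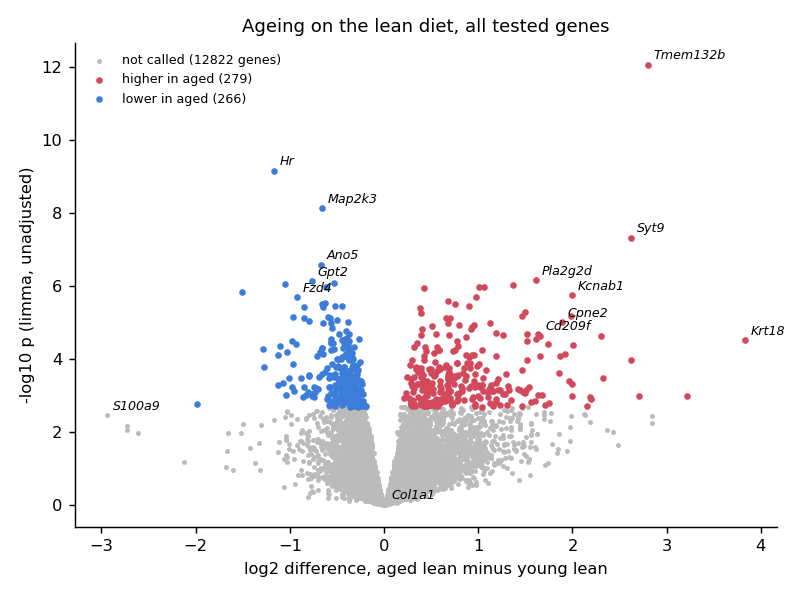
Log2 difference between aged lean and young lean muscle (x axis) against the unadjusted limma p as -log10 (y axis) for 13367 genes. The 279 genes called higher are red and the 266 called lower are blue; the largest called differences lie on the right, with Krt18 at 3.83.

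The clearest rise was in Tmem132b, which encodes a single-pass membrane protein. Its normalized values were 29.2, 41.7, 64.7 and 55.4 in young lean and 327, 340, 375, 269 and 320 in aged lean libraries. Every aged library was at least 4 times the highest young one. The difference was 2.80 on the log2 scale (SE 0.17, limma adjusted p = 1.18e-08). Krt18, a keratin of simple epithelia, read 13.6, 8.35, 8.57 and 3.89 in young lean and 136, 43.1, 408, 212 and 62.5 in aged lean libraries. The aged libraries were all higher but far apart among themselves, and the difference was 3.83 (SE 0.71, adjusted p = 0.00564). Its partner keratin Krt8, named after its values were seen, followed the same libraries, with 57.2, 43.0 and 30.8 in aged lean 3, 4 and 1 but 0.98 in aged lean 2, and did not pass (log2 2.85, adjusted p = 0.0809). Of 10 epithelial markers 3 were tested, and the remaining one of these, Krt10, was at 0.20. Syt9, a synaptotagmin that senses calcium in vesicle release, read 14.6, 20.9, 15.2 and 14.6 in young lean and 104, 159, 119, 55.7 and 113 in aged lean libraries. Again no aged library reached down to the young ones, and Syt9 rose by 2.62 (SE 0.31, adjusted p = 0.000163).

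Further named genes rose by 0.87 to 2.00 on the log2 scale. Kcnab1, a subunit that tunes voltage-gated potassium channels, read 66.2, 93.9, 80.9 and 88.4 in young lean and 455, 408, 333, 132 and 466 in aged lean libraries. It rose by 1.99 (SE 0.30, adjusted p = 0.00154), with aged lean 4 the lowest aged library. Cpne2, a calcium-dependent phospholipid-binding copine, read 255 to 334 in young lean and 648 to 1830 in aged lean libraries, and rose by 1.89 (SE 0.32). Fam174b, a small membrane protein, rose by 2.00 (SE 0.38), though its aged values spread from 70.6 to 612. Dupd1, a dual-specificity phosphatase of muscle, read 585, 354, 144 and 156 in young lean and 756 to 1376 in aged lean libraries, and rose by 1.92 (SE 0.38). Mpzl3 (1.36, SE 0.19), a myelin-zero-like adhesion protein, and the amylase Amy1 (1.00, SE 0.14) also rose. Amy1 read 389 to 756 in young lean and 927 to 1261 in aged lean libraries. Gamt, the enzyme that completes creatine synthesis, rose by 0.87 (SE 0.16), from 95.3 to 162 in young lean to 199 to 265 in aged lean libraries. Of these, Tmem132b, Krt18, Syt9, Kcnab1, Cpne2, Mpzl3, Amy1 and Gamt kept their call in all 19 runs and in all 13 other settings. Fam174b lost it in the fit of the lean groups alone (adjusted p = 0.0822), and Dupd1 with the clock score (adjusted p = 0.0891).

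**Figure D2:**
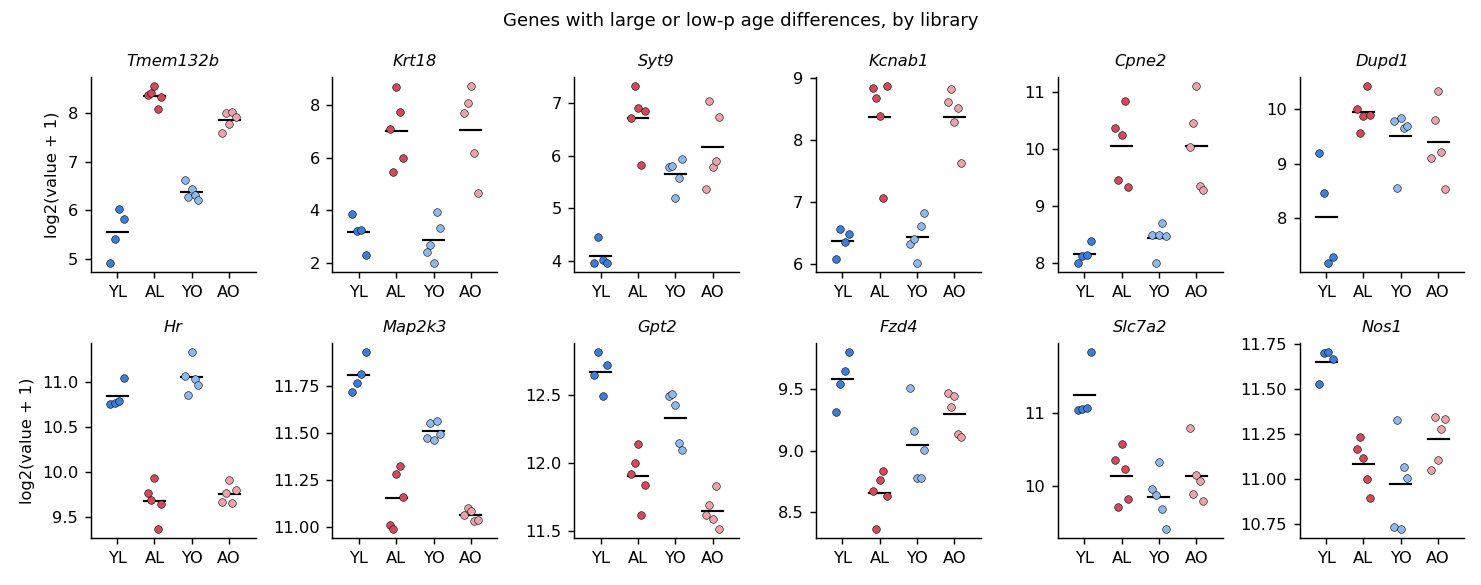
Values on the log2(value + 1) scale of 12 genes in young lean (YL), aged lean (AL), young obese (YO) and aged obese (AO) libraries; each point is a library and each bar a group mean. Tmem132b, Hr and Map2k3 separate young from aged lean libraries without overlap.

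Of the antigen presentation genes 3 rose with age and 22 did not pass. All 25 listed genes of MHC class I, MHC class II and the immunoproteasome had a positive difference, with a median of 0.69 on the log2 scale against -0.0027 for all tested genes, and 19 had an unadjusted p under 0.05. The 3 were H2-Aa, a chain of MHC class II that shows peptides to helper T cells, Cd74, the chaperone of class II, and H2-K1, a class I heavy chain shown to killer T cells. Cd74 read 695, 695, 1546 and 882 in young lean and 3449, 2738, 1040, 1754 and 3240 in aged lean libraries. Aged lean 1, 2 and 5 were far above all young libraries, while aged lean 3 fell below young lean 3. H2-Aa followed the same order with 227, 209, 630 and 311 in young lean and 1546, 1114, 365, 703 and 1213 in aged lean libraries. It rose by 1.51 (SE 0.38, adjusted p = 0.0283) and Cd74 by 1.31 (SE 0.32, adjusted p = 0.0247). H2-K1 read 973, 864, 807 and 1009 in young lean and 2458, 1937, 1026, 1188 and 1868 in aged lean libraries, so aged lean 3 was just above the highest young library. It rose by 0.82 (SE 0.20, adjusted p = 0.0262). None of the 3 held its call with the clock score (adjusted p between 0.0541 and 0.0843) or in the lean groups alone (0.11 to 0.115). Without young lean 1, 6 of the 25 passed, against 536 rises over all genes in that run. The class I genes are close copies of each other, and how the authors' counting divides their reads is not known.

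MHC class II genes share a promoter module that ends in an inverted CCAAT box, bound by the factor NF-Y, and chemokines induced by interferon carry an interferon-stimulated response element. The promoter windows of the called class II gene H2-Aa, of its partner chain H2-Eb1 (1.36, adjusted p = 0.0513, shown as the second class II gene though it did not pass) and of the chemokine Cxcl10 show both. Each window holds the 250 bases before the RefSeq start, 5′ to 3′ on the gene's strand, from RefSeq on GRCm38.p6, a build that need not be the one the authors used. They lie at chr17:34287824-34288073 on the minus strand (H2-Aa), chr17:34305617-34305866 on the plus strand (H2-Eb1) and chr5:92348890-92349139 on the minus strand (Cxcl10). Capitals mark ATTGG, or its reverse complement, in the class II genes, and GAAA, any 2 bases, then GAAA in Cxcl10, both strands searched.
H2-Aa: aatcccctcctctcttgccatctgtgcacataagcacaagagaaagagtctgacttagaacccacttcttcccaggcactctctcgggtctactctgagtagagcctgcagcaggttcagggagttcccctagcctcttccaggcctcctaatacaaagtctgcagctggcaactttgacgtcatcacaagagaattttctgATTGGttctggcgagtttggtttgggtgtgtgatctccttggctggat
H2-Eb1: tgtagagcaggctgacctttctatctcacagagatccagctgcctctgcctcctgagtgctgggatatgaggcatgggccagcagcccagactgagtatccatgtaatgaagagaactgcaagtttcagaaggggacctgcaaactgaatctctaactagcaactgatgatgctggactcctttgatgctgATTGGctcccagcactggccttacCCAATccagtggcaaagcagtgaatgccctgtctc
Cxcl10: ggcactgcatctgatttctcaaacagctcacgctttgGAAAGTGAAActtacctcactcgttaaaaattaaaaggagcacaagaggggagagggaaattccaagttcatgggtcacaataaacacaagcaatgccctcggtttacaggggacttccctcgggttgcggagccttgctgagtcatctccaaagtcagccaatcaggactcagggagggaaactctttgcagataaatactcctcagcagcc
The match begins 48 bases before the start in H2-Aa, at -59 and -35 in H2-Eb1, and 213 bases before it in Cxcl10. Of the 25 genes of the list, class I and immunoproteasome genes included, 20 had a window. Of these, 16 (80%) held ATTGG on either strand, where a gene counted if any of its windows matched. Of 32817 single windows 33.8% matched, a share per window that is not directly comparable with the share per gene. The spaced GAAA pair was in 2.97% of windows. A match describes these letters only and shows neither binding nor a cause.

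Of 31 tested genes of chemokines, cytokines and their receptors 6 rose, none fell and 25 did not pass, with 7 negative and a median difference of 0.37. Cxcl10, a T cell attractant induced by interferon, read 6.81, 8.35, 8.57 and 3.89 in young lean and 69.8, 28.4, 34.7, 30.3 and 21.1 in aged lean libraries, with aged lean 1 well above the others. It rose by 2.19 (SE 0.57, adjusted p = 0.0351). Ccl8, a monocyte attractant, read 16.5, 7.3, 28.6 and 47.6 in young lean and 149, 77.5, 40.8, 120 and 151 in aged lean libraries, and only aged lean 3 lay within the young range. It rose by 2.20 (SE 0.58, adjusted p = 0.0381). Tnfrsf12a, the Fn14 receptor of the wasting-linked cytokine TWEAK, rose by 1.28 (SE 0.33) and overlapped through young lean 1, at 497 against 143 to 212 in the other young libraries. Cx3cl1, a membrane-bound chemokine, rose by 1.01 (SE 0.21), and Cxcl16, named after its values were seen, by 1.34 (SE 0.36). Tgfb3, a transforming growth factor, rose by 0.29 (SE 0.07). All 6 lost the call in at least 1 setting, and 1 of the list passed with the clock score. Of 32 interferon-stimulated genes 29 were positive (median 0.51), 1 passed and 11 had an unadjusted p under 0.05. Of 19 complement genes all were positive (median 0.46) and 2 rose: Cfb, a factor of the alternative pathway (1.30, SE 0.36, adjusted p = 0.0482), and C7, a part of the membrane attack complex (1.16, SE 0.29, adjusted p = 0.0289). Cfb lost its call in 13 of the 19 runs and C7 in 5.

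None of the macrophage or neutrophil markers passed the test. Of 15 macrophage markers 13 were positive, with a median of 0.87 and a summed level of 2721 to 7784 in young lean and 5179 to 16260 in aged lean libraries. By limma 8 had an unadjusted p under 0.05. Adgre1, the F4/80 antigen, read 119, 37.6, 121 and 88.4 in young lean and 501, 316, 102, 188 and 204 in aged lean libraries (log2 1.44, SE 0.43, adjusted p = 0.0623). Aged lean 3 was below young lean 3 here too. Among aged lean libraries, aged lean 1 was highest in Cd74, Cfb and Adgre1. The complement gene C7 was highest in aged lean 5, at 449 against 285 in aged lean 1. The part of the macrophage markers in the antigen presentation and complement results was not tested. Siglec1, the sialic acid receptor of resident macrophages, rose by 1.71 (SE 0.48, adjusted p = 0.0487), a call lost in 15 of the 19 runs without 1 library and in 6 other settings. Ptafr, the receptor for platelet-activating factor, rose by 1.54 (SE 0.38). Pla2g2d, a secreted phospholipase of resident antigen-presenting cells, read 18.5, 22.9, 34.3 and 28.2 in young lean and 68.0, 78.4, 51.0, 97.8 and 120 in aged lean libraries. It rose by 1.62 (SE 0.22, adjusted p = 0.00113) without overlap and kept its call in every setting tried. Cd209f, a C-type lectin, also kept its call throughout (1.65, SE 0.30, adjusted p = 0.00489). Hpgd, which degrades prostaglandin E2, rose by 1.67 (SE 0.43), with aged lean 3 at 240 against 69.6 to 104 in the other aged libraries. Of 8 tested neutrophil markers none passed and 4 had an unadjusted p under 0.05, with a median of -2.37. That Neutrophil median rests on low genes: it was -0.19 over the 4 markers with a mean of at least 50, and -1.30 with a pseudocount of 5. S100a9, a granule protein of neutrophils, read 51.6, 126, 83.8 and 381 in young lean and 9.97, 13.7, 11.2, 14.7 and 30.8 in aged lean libraries. The groups did not overlap, but the difference of -2.94 (SE 0.88) did not pass (adjusted p = 0.0637).

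**Figure D3:**
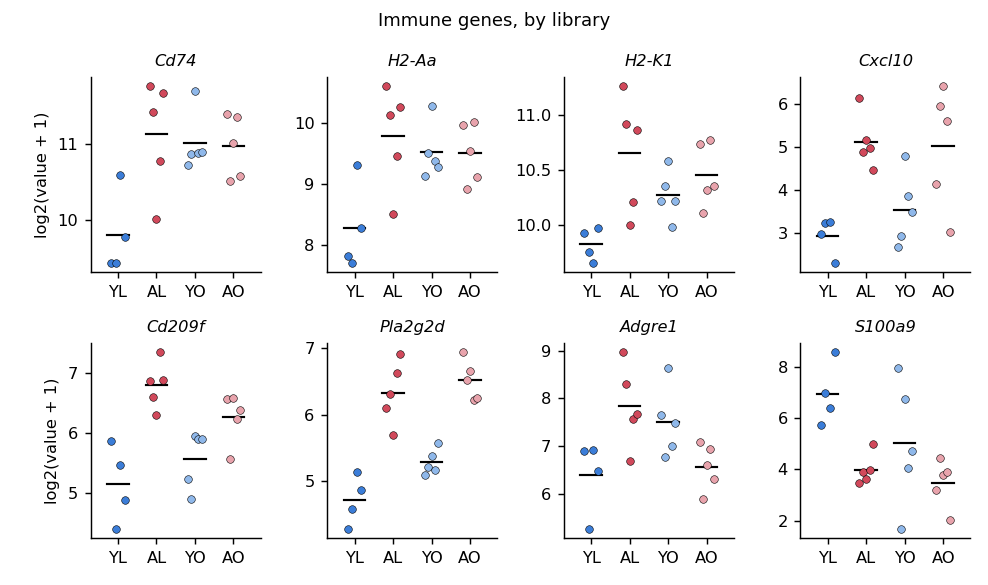
Values on the log2(value + 1) scale of 8 immune genes in young lean (YL), aged lean (AL), young obese (YO) and aged obese (AO) libraries; points are libraries and bars are group means. Pla2g2d and Cd209f separate the lean age groups, whereas Cd74, H2-Aa and Adgre1 overlap through aged lean 3.

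The falls with the lowest p were those of Hr, Map2k3 and Ano5. Hr, a corepressor of nuclear receptors such as the thyroid hormone receptor, read 1733, 1739, 1766 and 2114 in young lean and 869, 820, 974, 657 and 798 in aged lean libraries. No aged library came near the young ones, and Hr fell by 1.16 (SE 0.10, adjusted p = 4.68e-06). Map2k3, a kinase that activates p38, read 3372, 3489, 3605 and 3911 in young lean and 2066, 2033, 2492, 2568 and 2291 in aged lean libraries, and fell by 0.65 (SE 0.07, adjusted p = 3.38e-05). Ano5, a membrane protein whose loss causes limb-girdle dystrophy in people, fell by 0.67 (SE 0.09), from 4635 to 4904 in young lean to 2583 to 3367 in aged lean libraries. Gpt2, the mitochondrial alanine aminotransferase, read 6407, 7194, 5735 and 6740 in young lean and 3867, 4084, 4508, 3142 and 3659 in aged lean libraries. It fell by 0.76 (SE 0.11, adjusted p = 0.00113). Ak3, a mitochondrial adenylate kinase, fell by 0.53 (SE 0.08), and Lingo3, a leucine-rich repeat membrane protein, by 1.05 (SE 0.15). Hr, Map2k3, Ano5, Gpt2, Ak3 and Lingo3 kept their call in every setting tried.

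Among receptors, transporters and enzymes, Slc7a2, Nos1, Fzd4 and Ptp4a3 fell on the lean diet but had positive differences on the high-fat diet. Only that of Ptp4a3 was called there. Slc7a2, a carrier of arginine and lysine, read 2118, 2140, 2151 and 3692 in young lean and 1310, 832, 1520, 1204 and 900 in aged lean libraries, and fell by 1.12 (SE 0.22, adjusted p = 0.00858). Nos1, the neuronal nitric oxide synthase that sits at the muscle membrane and uses arginine, read 2959, 3329, 3342 and 3253 in young lean and 2296, 2406, 2224, 2053 and 1906 in aged lean libraries. It fell by 0.57 (SE 0.11, adjusted p = 0.00604). Fzd4, a Wnt and norrin receptor, read 637, 743, 801 and 890 in young lean and 407, 328, 432, 457 and 396 in aged lean libraries, and fell by 0.92 (SE 0.14, adjusted p = 0.00156). None of these 3 overlapped, and Slc7a2 and Nos1 lost the call with the clock score (adjusted p = 0.0686 and 0.0606). Ptp4a3, a protein tyrosine phosphatase among the more abundant called genes, fell by 0.65 (SE 0.13), from 20068 to 25687 in young lean to 12366 to 16618 in aged lean libraries. Klhl33, a kelch-repeat protein, fell by 0.93 (SE 0.18), Mlf1 by 0.98 (SE 0.18) and Banp, a nuclear matrix DNA-binding protein, by 1.03 (SE 0.20). On the high-fat diet Banp (-0.96) and Mlf1 (-0.58) were also called lower with age, and Klhl33 was at -0.11 without a call. Of 31 amino acid and polyamine genes 2 rose and 2 fell: Gamt and the antizyme Oaz2 (0.28, SE 0.07), and Slc7a2 and Nos1.

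Among energy genes, 3 of glycolysis and glycogen and 1 of fatty acid use fell, by 0.31 to 0.56 on the log2 scale. Of 35 such genes none rose, 3 fell and 29 were negative, with a median of -0.14. Gys1, the muscle glycogen synthase, read 13562, 11435, 11678 and 11979 in young lean and 8371, 10112, 10083, 10407 and 10130 in aged lean libraries. All aged libraries were lower, and Gys1 fell by 0.31 (SE 0.07, adjusted p = 0.0197). Ugp2, which makes UDP-glucose for glycogen, fell by 0.36 (SE 0.08), and Pgk1, a glycolytic kinase, by 0.50 (SE 0.10). Scaled to the same total per library, 1 of the 35 fell, and Gys1 and Ugp2 lost the call. Of 39 genes of fatty acid uptake and oxidation 1 fell, the lipid-sensing receptor Ppard (-0.56, SE 0.11). Lpin1, which makes diacylglycerol and acts as a coactivator, fell by 0.46 (SE 0.09). None of 37 complex I subunits passed (median -0.07, with 2 at an unadjusted p under 0.05), nor any of 42 subunits of complexes II to V (median -0.07, also 2). Ppargc1a, the regulator of mitochondrial content, was at 655 to 810 in young lean and 735 to 843 in aged lean libraries (0.10, SE 0.09).

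**Figure D4:**
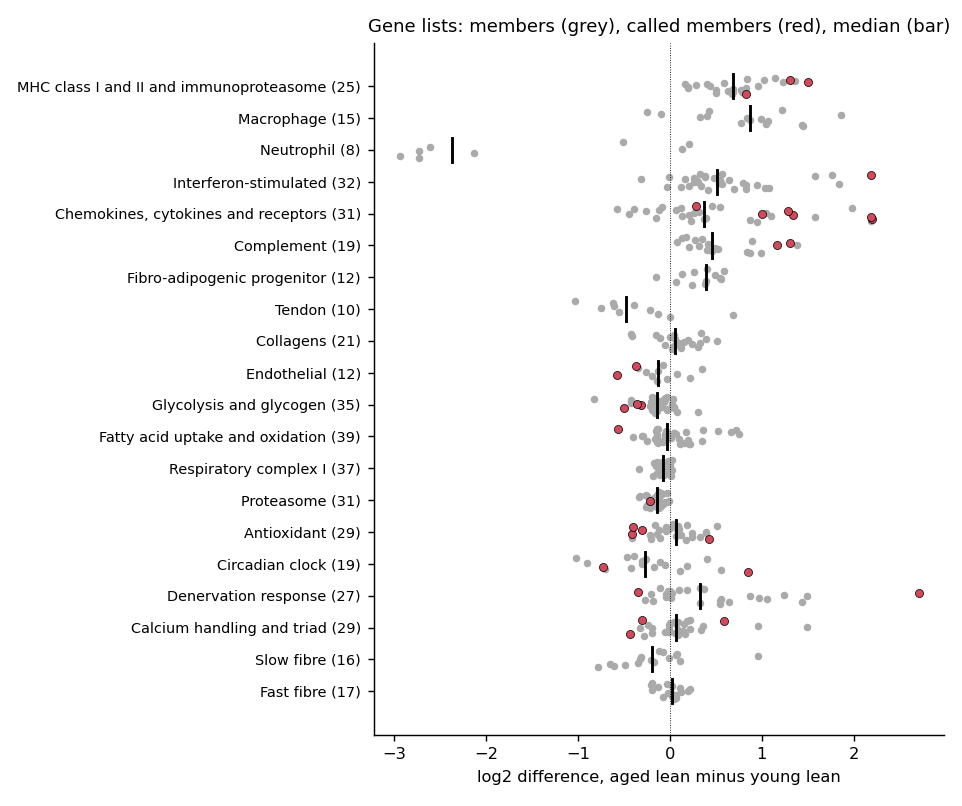
Log2 difference between aged lean and young lean muscle (x axis) for the tested members of 20 gene lists, with the number of members in brackets; red points passed the test, grey ones did not, and the black bar is the list's median. The median of the MHC list is 0.69 and that of the neutrophil list -2.37, which rests on genes of low value.

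Among vessel and redox genes a few small falls passed, where 1.99% of all tested genes fell and 2.09% rose. Of 12 endothelial markers 2 fell and 9 were negative, with a median of -0.13. Flt1, a receptor for vascular endothelial growth factor, read 1849, 1621, 1677 and 2059 in young lean and 1090, 990, 1314, 1272 and 1402 in aged lean libraries, and fell by 0.57 (SE 0.10, adjusted p = 0.00276) without overlap. Ptprb, the endothelial phosphatase that restrains Tie2, fell by 0.37 (SE 0.09). The summed endothelial level was 9411 to 12064 in young lean and 8191 to 10700 in aged lean libraries. Of 29 antioxidant genes 1 rose and 3 fell, while 16 were positive and the median was 0.06. Keap1, the adaptor that degrades NRF2, fell by 0.40 (SE 0.07), from 1580 to 2047 in young lean to 1324 to 1457 in aged lean libraries. Sod1, the cytosolic superoxide dismutase, fell by 0.41 (SE 0.08) and the peroxiredoxin Prdx1 by 0.30 (SE 0.06), and Gclc, the first enzyme of glutathione synthesis, rose by 0.43 (SE 0.10). Flt1 and Keap1 kept their call in every setting tried. Ptprb, Sod1, Prdx1 and Gclc lost theirs in the lean groups alone (limma adjusted p = 0.0593 to 0.107). Prdx1 also lost it with each library scaled to the same total and with quantile scaling, and Sod1 and Gclc with the clock score.

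Stress, calcium and membrane excitability genes gave single calls in both directions. Of 31 genes of the integrated stress response and chaperones 2 rose and 1 fell. Hspb8, a small heat shock protein of chaperone-assisted autophagy, read 11765, 11358, 11521 and 12278 in young lean and 19026, 14369, 17785, 24039 and 13497 in aged lean libraries. The young values were tight and the aged ones all higher, and Hspb8 rose by 0.57 (SE 0.12, adjusted p = 0.0153). Hspa5, the main chaperone of the endoplasmic reticulum, rose by 0.48 (SE 0.13, a call lost in 12 of the 19 runs) and Atf4, the factor at the centre of that response, fell by 0.39 (SE 0.08). Of 29 calcium handling genes Camk2b, a calmodulin-dependent kinase, rose by 0.59 (SE 0.11), while its relative Camk2g fell by 0.31 (SE 0.07) and the calcium channel subunit Cacnb1 by 0.44 (SE 0.10). Of 26 excitability genes 2 rose and 2 fell. The rises were Kcnab1 and Kcnq5 (0.94, SE 0.19), both of potassium channels. The falls were the potassium channel Kcna7 (-0.46, SE 0.11) and Slc4a8, a sodium-driven bicarbonate exchanger (-1.28, SE 0.25). Of the genes called in these 3 lists, only Kcnab1 kept its call in every setting tried. Hspb8, Hspa5, Atf4, Camk2b, Camk2g, Cacnb1, Kcnq5 and Kcna7 lost it in the lean groups alone (limma adjusted p = 0.0554 to 0.112). With the clock score Hspa5, Atf4, Camk2g, Cacnb1 and Slc4a8 lost it (0.0686 to 0.214).

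Genes that answer to loss of the nerve mostly did not pass. Of 27 denervation genes 1 rose, 1 fell and 18 were positive, with a median of 0.33 and 7 at an unadjusted p under 0.05. Gdf5, a growth factor raised in denervated muscle, was listed at 0, 0, 0 and 7.78 in young lean and at 4.53, 6.86, 56.1, 3.91 and 13.5 in aged lean libraries. It passed (adjusted p = 0.0342), at levels too low for a fold to be read. Rapsn, which anchors acetylcholine receptors at the junction, fell by 0.34 (SE 0.09). Runx1 (1.06, adjusted p = 0.248), Chrna1 (0.54, adjusted p = 0.168) and Sln, the calcium pump inhibitor sarcolipin (1.49, adjusted p = 0.212), did not pass. Of 26 p53 and growth arrest genes 1 fell: Cdkn1b, the cell cycle inhibitor p27, which read 637 to 843 in young lean and 453 to 523 in aged lean libraries (-0.65, SE 0.10, adjusted p = 0.00191). Cdkn1a, the inhibitor p21, read 292, 301, 490 and 385 in young lean and 1085, 640, 1348, 893 and 532 in aged lean libraries. These did not overlap, yet the difference of 1.24 (SE 0.42) did not pass (adjusted p = 0.0998).

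The contractile, matrix and breakdown genes for which ageing muscle is often examined gave few calls. None of 17 fast fibre genes passed (median 0.03, none at an unadjusted p under 0.05) and none of 16 slow fibre genes (median -0.19, 2 at an unadjusted p under 0.05). Myh7, the slow myosin, read 9343, 5144, 6881 and 4892 in young lean and 2867, 6260, 2463, 5076 and 3053 in aged lean libraries, with overlap (-0.78, SE 0.33, adjusted p = 0.179). Myh4 was at -0.08 (SE 0.20) and Myh2 at 0.07 (SE 0.32), and the sign of both changed in some settings. None of 21 collagens passed, and 1 had an unadjusted p under 0.05. Col1a1, the main fibrillar collagen chain, ranged from 949 to 7989 in young lean and from 1499 to 3062 in aged lean libraries (0.02, SE 0.55, with the sign changing in some settings). Of 37 genes of atrophy and autophagy 1 rose, the ligase adaptor Fbxo21 (0.38, SE 0.10), and Fbxo32, the atrophy ligase atrogin-1, read 1520, 6262, 12725 and 23107 in young lean and 5409 to 7552 in aged lean libraries. Its young libraries thus spanned more than the whole aged range (-0.21, SE 0.48, with the sign changing in some settings). Of 31 proteasome subunits all were negative (median -0.14) and 1 fell, Psmb7 (-0.21, SE 0.06), and 9 fell without young lean 1. Without that library 9 of 30 insulin and mTOR genes also fell, against none with it (median -0.16 with it, 10 at an unadjusted p under 0.05). Over all genes the falls rose from 266 to 735 in that run. Psmb7 and Fbxo21 each lost the call in 15 of the 19 runs without 1 library.

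Of 19 circadian clock genes 1 rose and 1 fell, and 14 of the 19 were negative (median -0.27). Arntl, the activator BMAL1, read 349, 222, 289 and 201 in young lean and 315, 621, 458, 531 and 466 in aged lean libraries. It rose by 0.85 (SE 0.18, adjusted p = 0.0138), with an overlap of young lean 1 and aged lean 1. Per3, a period repressor, read 453, 639, 746 and 718 in young lean and 471, 243, 423, 461 and 346 in aged lean libraries, and fell by 0.73 (SE 0.18, adjusted p = 0.0305), with young lean 1 inside the aged range. Without young lean 1, 1 clock gene rose and 8 fell, in a run where falls over all genes numbered 735 against 266. With the clock score as a covariate none passed, a score that itself contains Arntl and Per3.

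The large age differences of Krt18 and Kcnab1 had counterparts on the high-fat diet, while many other lean calls did not pass there. The lean and high-fat comparisons use no common library, though each gene's spread is pooled over all 4 groups. Between aged obese and young obese mice 1206 genes passed, 9.02% of those tested, 556 upward (4.16%) and 650 downward (4.86%). Of the 545 genes called on the lean diet, 365 (67.0%) had the same sign on the high-fat diet, a share not counted over all genes. On that diet 114 were called in the same direction and 12 in the opposite one. The 114 are 20.9% of the lean calls and 9.45% of the high-fat calls. Genes that rose on the lean diet had a median of 0.71 there and 0.17 on the high-fat diet. Those that fell had medians of -0.42 and -0.08. The genes were selected by the lean test, which enlarges their lean medians, so smaller high-fat medians do not by themselves show a weaker effect. Krt18 was at 3.83 and 4.19 on the lean and high-fat diets, Kcnab1 at 1.99 and 1.94, Cpne2 at 1.89 and 1.61, Hr at -1.16 and -1.29, Gpt2 at -0.76 and -0.68, and Banp at -1.03 and -0.96.

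The difference between the ageing effects on the 2 diets was tested directly, and 398 genes passed (2.98%), 109 of them among the lean calls. The lean effect was the more positive in 226 (1.69%) and the more negative in 172 (1.29%). Of the 419 genes called on the lean diet and not on the high-fat diet, the difference passed in 96 and did not in 323. This count was 5 with the clock score and 0 with a tendon score (1349 and 1534 genes at an unadjusted limma p under 0.05). It ranged from 112 to 1724 when 1 library was left out, so single genes below are values of these libraries. The tendon score, a mean log2 level of 6 tendon genes, was 5.99 to 7.17 in young lean, 5.58 to 7.22 in aged lean, 7.67 to 9.13 in young obese and 5.43 to 7.13 in aged obese libraries. Its values did not overlap between young obese and the other libraries, so the fit with this score cannot separate the score from that group. Whether tendon in the young obese samples contributes to these differences was not tested.

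Some genes moved oppositely. Slc15a5, a carrier of the peptide transporter family, read 74.9, 144, 113 and 110 in young lean and 226, 198, 307, 189 and 352 in aged lean libraries, and rose by 1.19 (SE 0.21). In obese mice it read 69.2 to 117 in aged and 113 to 195 in young libraries, and fell by 0.77, a difference between diets of 1.96 (SE 0.29, adjusted p = 0.00491). Prkcd, a protein kinase C, rose by 0.96 on the lean diet and fell by 0.91 on the high-fat diet (adjusted p of the difference 0.00625). Ptp4a3 fell by 0.65 on the lean diet and rose by 0.46 on the high-fat diet (adjusted p of the difference 0.00625). Gle1, an mRNA export factor, fell by 0.38 and rose by 0.25 (adjusted p of the difference 0.00475), and the sodium-proton exchanger Slc9a8 was at -0.29 and 0.23. Per3 fell by 0.73 on the lean diet and rose by 0.77 on the high-fat diet. Fzd4 was at 0.25 and Slc7a2 at 0.29 on the high-fat diet, neither of them called there, and the difference from the lean diet passed for both (adjusted p = 0.00625 and 0.0227). Tmem132b and Syt9 were higher with age on both diets, at 1.49 and 0.50 on the high-fat diet, and the difference passed for both (adjusted p = 0.0113 and 0.0175). Syt9 did not pass on the high-fat diet alone.

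**Figure D5:**
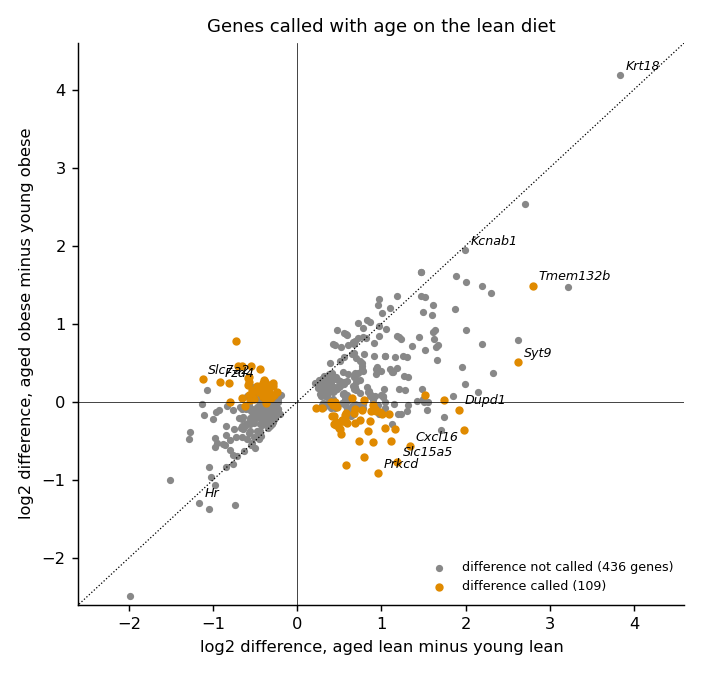
Log2 age difference on the lean diet (x axis) against that on the high-fat diet (y axis) for the 545 genes called on the lean diet; orange marks the 109 whose difference between diets passed, and the dotted line marks equal effects. Krt18 and Kcnab1 lie near the line, and Slc15a5 and Prkcd lie below the horizontal axis.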

How the data were processed

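Per the labels, the authors deposited 1 normalized signal value per gene and library. The submitters' processing notes list STAR 2.78a, DESeq2, Partek and the build mm39 without saying what each did; annotation and counting are not given in the sources. Low values are nearly multiples of 1 read, but 85.2 to 86.3% were whole within 0.02 of a read, so counts could not be recovered for a count test. Estimated depths were 15.1 to 17.9 M reads per library.

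Values were analysed as log2(value + 1), which understates the change of low genes, with limma-trend 3.58.1 in R 4.3.3 after removal of 1340 genes whose mean was under 10. All 19 libraries entered 1 model with 4 group means (15 residual and 4.37 prior degrees of freedom), and p-values were Benjamini-Hochberg adjusted over 13367 genes within a comparison. Python 3.11.15, numpy 2.4.6, pandas 2.3.3 and matplotlib 3.10.9 were used, and the code was tested on simulated data. The clock score subtracts the mean log2 value of Ciart, Nr1d2, Hlf, Tef, Per3 and Dbp from that of Clock, Npas2 and Arntl. The tendon score is a mean over Kera, Chad, Cilp2, Mkx, Scx and Tnmd. The comparison, the gene lists and both scores were chosen with earlier results of these data known. Named genes are called genes with a mean of at least 50 (the 15 largest rises and falls, the 12 lowest p, the 10 most abundant), up to 4 called members of each list, a set of 23 muscle genes, and genes of the interaction or of both ageing comparisons, and the text prints part of them. Exceptions are marked where they are named. Alternatives were the pseudocount, the filter, the scaling, library weights, robust moderation, the 2 groups alone, the clock or tendon score, pairs of libraries and each library left out. Promoter windows come from RefSeq on GRCm38.p6.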

Additional observations from a re-analysis of the deposited data

Results flagged for a closer look

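In groups of 4 or 5 libraries the highest or lowest library was tested for a gap from the rest, for 95 genes in 2 groups (190 pairs), and 13 stood out by Dixon's criterion. Chance alone flags about 1 in 20 groups. In young lean libraries these were Syt9 at 20.9 in young lean 2, Hspa5 at 3380 in young lean 1, and in young lean 4 Hr at 2114, Slc7a2 at 3692, Gdf5 at 7.78 and Prkcd at 235. In aged lean libraries they were Cxcl10 at 69.8 and Gys1 at 8371 in aged lean 1, Hpgd at 240, Lpin1 at 9664 and Gdf5 at 56.1 in aged lean 3, Peg3 at 179 in aged lean 4 and S100a9 at 30.8 in aged lean 5.

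The age effect differed between the lean and the high-fat diet by the limma test of the difference itself (adjusted p under 0.05) in 25 of the named genes. It was larger (more positive) on the lean diet by 1.31 log2 units for Tmem132b, 2.12 for Syt9, 2.02 for Dupd1, 1.91 for Cxcl16, 1.16 for Cx3cl1, 1.5 for C7, 2.38 for Adgre1, 1.22 for Arntl, 3.48 for Col1a1, 1.96 for Slc15a5 and 1.87 for Prkcd. For Col1a1 it was 0.02 on the lean and -3.45 on the high-fat diet. The lean minus high-fat difference was negative for Slc7a2 (-1.41), Fzd4 (-1.18), Ptp4a3 (-1.11), Nos1 (-0.82), Ugp2 (-0.57), Gys1 (-0.36), Ppard (-0.59), Keap1 (-0.47), Camk2g (-0.51), Rapsn (-0.56), Per3 (-1.5), Myh7 (-2.15), Gle1 (-0.64) and Slc9a8 (-0.52). Myh7 was at -0.78 on the lean diet, which did not pass, and at 1.37 on the high-fat diet, which did (adjusted p = 0.0102). The number of genes with such a difference over all genes was 5 with the clock score and 0 with the tendon score in the model, against 398 without. The tendon score was higher in every young obese library than in any other library. The clock score differed by age in opposite directions on the 2 diets, with some overlap. A fit with either score therefore cannot fully separate the score from the groups.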

How the results depend on the processing

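No paired analysis was possible because the labels give no replicate numbers shared between groups. The count of called genes on the lean diet was 545 and moved beyond 1.5-fold with library weights (1565), the 2 groups alone (130), the clock score (206), without young lean 1 and young obese 2 together (1489) and without young lean 3 and young obese 3 together (355), and ranged from 283 to 1271 with 1 library left out. On the high-fat diet it was 1206, and 2840, 306, 2523 and 786 with the same weights, clock score and pairs, 12 with the tendon score, and 723 to 1893 with 1 library left out. The difference between diets was called in 398 genes, and in 2494, 5, 0, 2694 and 134 with weights, clock score, tendon score and the 2 pairs, and in 112 to 1724 with 1 library left out. The number of genes without overlap between young lean and aged lean was 864, and 1062 to 2247 with 1 library left out (the highest without young lean 1). Leaving out a lean library can only keep or raise this number, since it compares the lowest and highest values of the groups. The cause of the shifts in called genes was not tested. The other settings (pseudocount 0.5 or 5, no filter, a mean of 50, equal totals, quantile scaling, robust moderation) gave 511 to 567 on the lean diet. Of 81 called genes named here, 48 kept the call in all 19 runs without 1 library, 40 with the clock score and 76 with the tendon score. In those 19 runs and in every other setting that tested them, 27 kept it. Among these 27, Cd209b and Cd209g were tested in 12 of the 13 other settings. Reversed values were Myh4 at 0.024 with the clock score and -0.15 to 0.040 without 1 library. With quantile scaling Myh4 was at 0, which is not a change of sign. Myh2 was at -0.23 with the clock score and -0.067 to 0.30 without 1 library. Col1a1 was at -0.55 with weights, -0.19 with the clock score and -0.42 to 0.60 without 1 library. Fbxo32 was at 0.47 with the clock score, 0.061 without young lean 3 and young obese 3, and -0.96 to 0.35 without 1 library. The Neutrophil median of -2.37 was -0.19 with the mean of 50 and -1.30 with pseudocount 5. Depth near 16 M reads limits genes listed at a few reads, such as Gdf5.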

Other observations

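The groups below were chosen after their values were seen, so their counts describe these libraries only. Of 7 tested mast cell genes 3 rose on the lean diet, with a list median of 0.82. Tpsb2, a tryptase, read 91.5, 31.3, 56.2 and 82.6 in young lean and 112, 155, 105, 116 and 149 in aged lean libraries (1.05, SE 0.24, adjusted p = 0.019). The chymases Cma1 (1.00, SE 0.24) and Mcpt4 (0.96, SE 0.23) rose with it, and Tpsb2 was at -0.01 on the high-fat diet. The difference between diets did not pass for Tpsb2, Cma1 or Mcpt4 (limma adjusted p = 0.0774, 0.114 and 0.0751). All 3 lost the call without young lean 2 or young lean 3. Of 15 tested CD209 and C-type lectin genes 5 rose and none fell (median 1.23). Cd209b read 20.4, 17.7, 29.5 and 28.2 in young lean and 41.7, 89.2, 61.2, 83.1 and 69.2 in aged lean libraries and rose by 1.47 (SE 0.24, adjusted p = 0.00275). Cd209g (1.64, SE 0.29) and Cd209f (1.65) rose by a like amount, and Clec12a, a lectin of myeloid cells, rose by 2.33 (SE 0.54) with aged lean 1 at 180 and aged lean 3 at 18.4. Cd209a passed narrowly (1.23, adjusted p = 0.0483) and lost the call in 12 of 19 runs.

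Of 24 tested imprinted genes, which are expressed from 1 parental copy, 3 fell and none rose (median 0.09). H19, a long noncoding RNA abundant in young muscle, read 12149, 9561, 15020 and 13757 in young lean and 6467, 7561, 7121, 7118 and 7566 in aged lean libraries, without overlap, and fell by 0.80 (SE 0.18, adjusted p = 0.0183). Meg3 fell by 0.74 (SE 0.18) and Peg3 by 0.83 (SE 0.21). With 1 library left out, H19 lost its call in 1 of 19 runs (without young lean 3), Meg3 in 3 and Peg3 in 7. Meg3 and Peg3 also lost it with each library scaled to the same total and with the clock score. In the lean groups alone Meg3 lost it too (limma adjusted p = 0.0532).

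Replicates of the young lean group differed more than those of the aged lean group. The median SD of log2 values within a group was 0.217 in young lean and 0.169 in aged lean libraries, and 39.1% of genes had the larger SD in aged lean libraries. The first component over the 9 lean libraries held 32.6% of the variance.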
